A study of Mus musculus with 12 samples.

Results

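A set of 9 genes of the complement system is described here in healing mouse skin, in 12 RNA-seq libraries of wounds treated with capsaicin (CAP), the pungent compound of chili peppers, or with its carrier gel. The 9 genes are C1qa, C1qb and C1qc (the chains of C1q), C4b, C3, Cfb (complement factor B), Serping1 (the C1 inhibitor), C3ar1 (the receptor of C3a) and C5ar1 (the receptor of C5a). They were taken by symbol from the 55487 genes of each deposited table, and each symbol was found once. All libraries came from cutaneous wounds of male C57BL/6JNarl mice, which were 6 weeks old and carried 2 punch wounds each on the back under a sterile dressing. The sham group received Pluronic F127 gel alone once daily, and the CAP-treated group received 10 µM CAP in the same gel, so both groups carry the wound, the gel and the dressing. Tissue was taken at day 3 and day 6, with 3 libraries in each of the 4 groups. No unwounded skin was analysed here, and neither labels nor methods say whether any libraries share a mouse, so p values measure only the spread between libraries.

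Complement is a cascade of proteins that tag microbes and dead cells and call in leukocytes. C1q recognises its targets and starts the classical pathway, whose proteases cleave C4 and C2 and then C3; factor B builds a second C3-cleaving enzyme that amplifies the reaction, and the C1 inhibitor blocks the proteases at the start. Cleavage of C3 and C5 releases the peptides C3a and C5a, which act on myeloid cells through C3ar1 and C5ar1. The liver makes most complement of the blood, while macrophages are a main source of C1q, and fibroblasts and other skin cells also make complement proteins.

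The levels are in TPM, which states how much of a library's transcripts a gene makes up on a scale with a fixed total, estimated by the authors with a correction for transcript length, so that levels of different genes can be compared. TPM does not keep the sequencing depth, which is therefore unknown. Each library had 18533 to 19325 genes at 0.3 TPM or more. Markers of skin wounds were present in every library, with keratinocyte genes summing to between 24490 and 96980 TPM, fibroblast genes to between 10380 and 26190 TPM and macrophage genes to between 3869 and 10100 TPM. Hepatocyte genes summed to no more than 0.902 TPM in any library. By marker sums 1 library stood apart, CAP-treated replicate 2 of day 6, which had the highest keratinocyte sum (96980 TPM) and the lowest neutrophil sum (280.8 TPM), and the calls that change without it are given beside the results. Correlations of log2 values within that group did not single it out. They were 0.9694 for replicates 1 and 2, 0.9693 for 1 and 3, and 0.9577 for 2 and 3.

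All 9 genes lie on the minus strand of GRCm38 by the coordinates in the tables. The C1q chains are neighbours on chromosome 4, with C1qb at chr4:136880129-136886187, C1qc at chr4:136889804-136893065 and C1qa at chr4:136895917-136898803. Chromosome 17 holds C4b (chr17:34728380-34743882), Cfb (chr17:34856374-34862518) and C3 (chr17:57203970-57228136). Serping1 is at chr2:84765387-84775444, C3ar1 at chr6:122847138-122856161 and C5ar1 at chr7:16246743-16259540. To show what lies in front of these genes, the 250 bases before the annotated start were read from the RefSeq promoter table (GRCm38.p6), which held a window for 5 of the 9 genes (C1qb, C1qc, C3, C3ar1 and C5ar1). The 3 shown stand for a C1q chain, the central component C3 and the receptor C3ar1. All are on the minus strand and are written 5′ to 3′ in the direction of transcription. Capitals mark matches, on either strand, to one of the 5 motifs searched.
C1qb, chr4:136886201-136886450: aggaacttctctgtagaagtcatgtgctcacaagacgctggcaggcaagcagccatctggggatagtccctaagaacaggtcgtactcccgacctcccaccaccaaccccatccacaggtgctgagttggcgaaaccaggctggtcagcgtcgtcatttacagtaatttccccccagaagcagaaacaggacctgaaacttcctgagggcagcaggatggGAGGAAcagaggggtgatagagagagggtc
C3, chr17:57228137-57228386: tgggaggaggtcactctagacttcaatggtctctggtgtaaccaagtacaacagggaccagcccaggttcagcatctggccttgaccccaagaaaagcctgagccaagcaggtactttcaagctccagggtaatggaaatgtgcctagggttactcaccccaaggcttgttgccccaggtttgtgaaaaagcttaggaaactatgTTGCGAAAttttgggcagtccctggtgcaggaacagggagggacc
C3ar1, chr6:122856158-122856407: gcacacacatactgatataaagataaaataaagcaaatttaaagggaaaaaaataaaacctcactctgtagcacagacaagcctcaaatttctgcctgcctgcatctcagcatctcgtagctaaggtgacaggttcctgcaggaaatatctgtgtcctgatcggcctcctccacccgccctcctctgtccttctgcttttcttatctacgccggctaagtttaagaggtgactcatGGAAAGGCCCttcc
The motifs were GAS (TTCNNNGAA), ISRE, kappaB, C/EBP (TTGCNNAA) and PU.1 (GAGGAA). The capitals in C1qb are PU.1 letters, which begin 30 bases before the start and occur in 23.3% of the 32851 mouse windows of this length. In C3 the capitals are the C/EBP letters, 45 bases before the start, found in 9.56% of windows. In C3ar1 they are the kappaB letters on the opposite strand, 14 bases before the start, found in 1.41% of windows. The C1qc window held the PU.1 letters 193 bases before its RefSeq start, which lies inside the gene as the tables give it, and is not shown. Neither GAS (7.02% of windows) nor ISRE (2.98%) letters were in the 5 windows, and the C5ar1 window held none of the 5. The RefSeq start of C5ar1 also lies inside the gene by the coordinates above, so most of its window is not upstream of the gene. Such matches describe letters only and do not show a bound site.

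C1qb had the highest mean level of the 9 genes in all 4 groups. In the sham group at day 3 the mean level was 767 ± 96.4 TPM for C1qb, 692 ± 73.7 for C1qa, 591 ± 50.9 for Serping1, 569 ± 61.4 for C1qc, 381 ± 71.6 for Cfb, 378 ± 20.3 for C3, 134 ± 12.3 for C4b, 123 ± 21.0 for C3ar1 and 90.5 ± 29.6 for C5ar1 (SD, n = 3). Between libraries, neighbours in this order overlapped in range, except C1qc with Cfb and C3 with C4b. Within every library of the group, C1qb was also above C1qa, C1qa above Serping1, Serping1 above C1qc and C3ar1 above C5ar1. C4b was last of the 9 by mean in the CAP-treated group at day 3 (76.0 ± 19.3 TPM, overlapping with C5ar1) and above both receptors in every CAP-treated library at day 6 (223 ± 36.4 TPM). Together the 9 genes made up 0.237% to 0.591% of the TPM of a library.

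**Figure D1:**
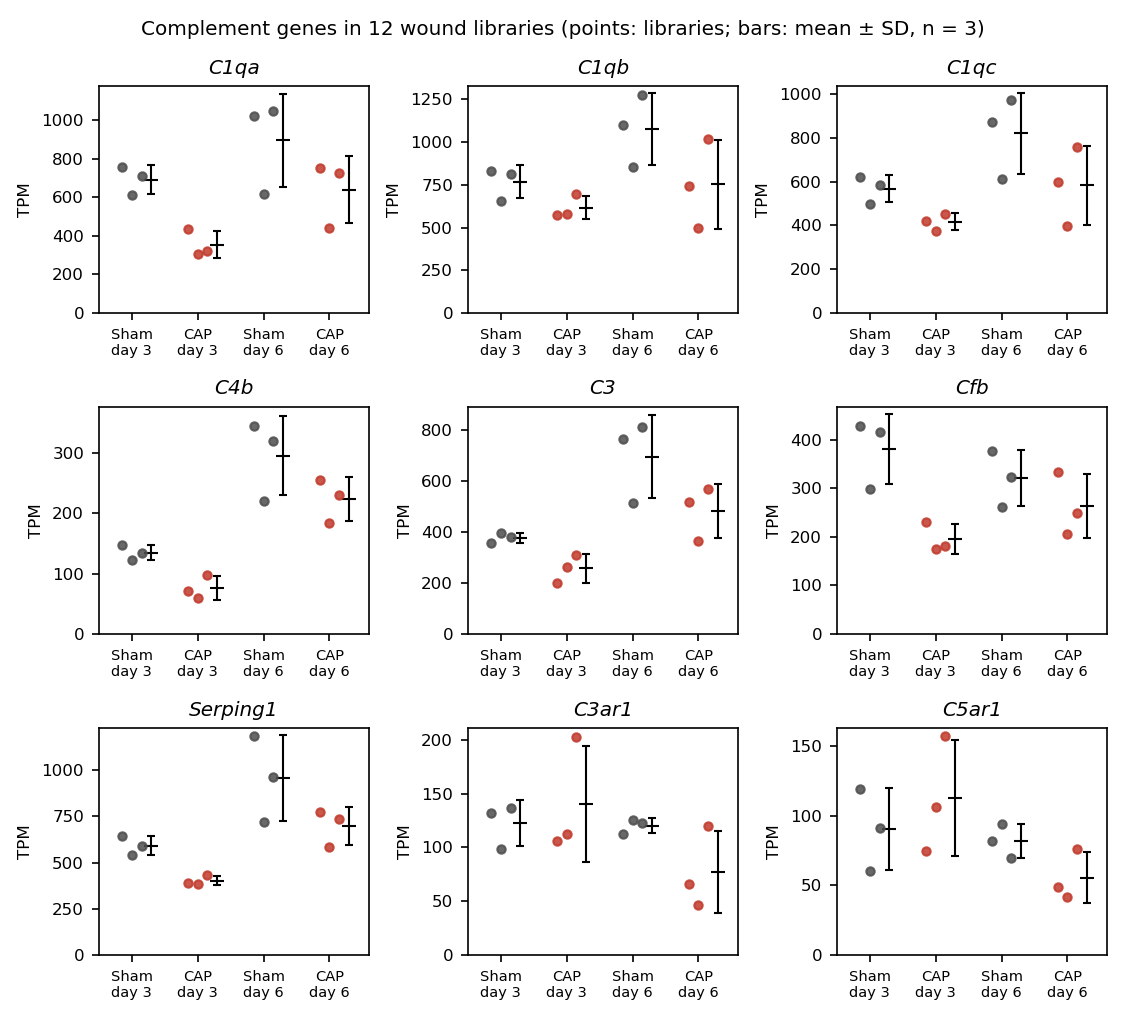
TPM of the 9 complement genes (y axis, 1 panel per gene, from 0) in each library of the 4 groups (x axis), grey for sham and red for CAP, with mean ± SD of 3 libraries as bars. At day 3 the CAP points of C1qa (308 to 436 TPM), C1qc, C4b, C3, Cfb and Serping1 lie below every sham point, and those of C3ar1 and C5ar1 do not.

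The first comparison asks whether CAP altered these genes during the inflammatory phase, at day 3. Of the 9 genes, 6 were lower in every CAP-treated library than in any sham library, namely C1qa, C1qc, C4b, C3, Cfb and Serping1. Such a separation downwards was found in 8.75% of the 18330 genes tested. The same 6 genes had an unadjusted p under 0.05 in limma, against 5.14% of all genes lower at that level. None of the 9 passed the study's threshold, an unadjusted p under 0.05 with a change of at least 2-fold, which 1.16% of genes passed downwards and 0.426% upwards. None had an adjusted p under 0.05 either, reached by no gene downwards and by 0.0164% upwards. The median log2 difference of the 9 genes was −0.55, that of all genes tested −0.05. With 3 libraries a side the exact permutation test cannot give less than 0.1, which it gave for each of the 6. The threshold was passed by C1qa and Cfb without CAP-treated replicate 1 or without sham replicate 2, and by C4b without CAP-treated replicate 3.

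C1qa, the A chain of C1q, had the largest difference at day 3. Its level was 757, 612 and 708 TPM in the sham libraries and 436, 308 and 319 TPM in the CAP-treated libraries. The highest CAP library therefore stayed below the lowest sham library by more than the SD of either group (73.7 and 70.9 TPM). On the log2 scale (log2(TPM + 0.1), as for all differences below) the difference between CAP and sham was −0.98 (SE 0.16, limma p = 0.000599, adjusted p = 0.500, exact permutation p = 0.1), just short of 2-fold.

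The other chains moved less. C1qc was at 619, 500 and 586 TPM in sham wounds and 421, 376 and 453 TPM in CAP-treated wounds, a log2 difference of −0.45 (SE 0.12, limma p = 0.00936, exact permutation p = 0.1). C1qb was at 833, 656 and 811 TPM in sham wounds and 574, 579 and 697 TPM in CAP-treated wounds. Its groups overlapped through CAP-treated replicate 3 and sham replicate 2, and the difference of −0.31 had an interval that included 0 (95% interval −0.65 to 0.02, limma p = 0.0636, exact permutation p = 0.2).

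The 3 chains assemble into 1 protein in equal numbers, so their ratios within a library were also computed, a choice made after their levels were seen. C1qa/C1qb was 0.908, 0.933 and 0.873 in the sham libraries of day 3 and 0.759, 0.532 and 0.458 in the CAP-treated ones, a log2 difference of −0.67. C1qa/C1qc behaved likewise, at 1.22, 1.22 and 1.21 against 1.04, 0.819 and 0.705. Both ratios were lower in every CAP library, and leaving out any 1 library left the C1qa/C1qb difference between −0.87 and −0.51. C1qb/C1qc overlapped between the groups, at 1.35 ± 0.0356 against 1.48 ± 0.102. At day 6 C1qa/C1qb was 0.825 ± 0.102 in sham and 0.873 ± 0.152 in CAP-treated wounds, a difference smaller than the spread.

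**Figure D2:**
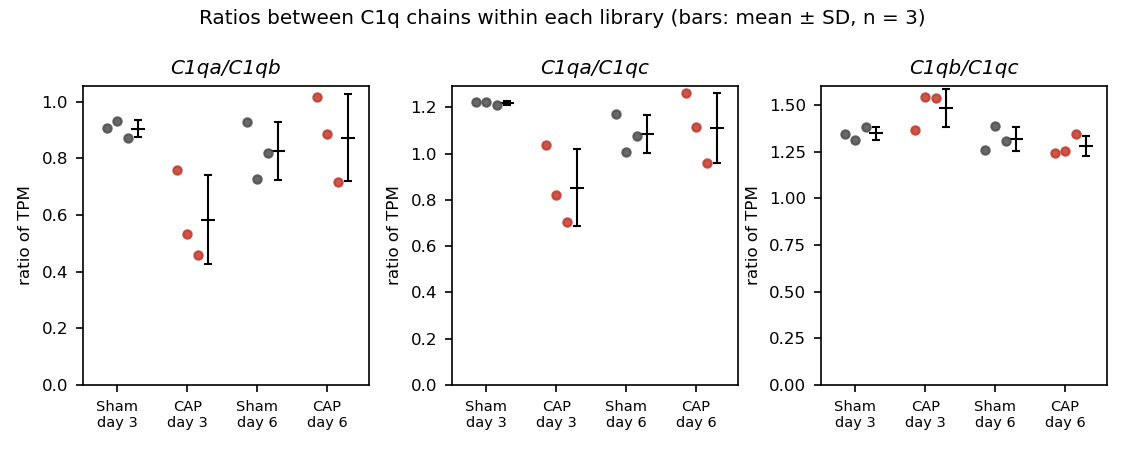
Ratios of TPM between C1q chains within each library (y axis, from 0) in the 4 groups (x axis), with mean ± SD of 3 libraries as bars. At day 3 the 3 CAP points of C1qa/C1qb (0.458 to 0.759) and C1qa/C1qc lie below every sham point, and those of C1qb/C1qc do not.

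Of the components that act after C1q, C4b, Cfb and C3 were lower at day 3. C4b, the C4 of the classical pathway, was at 147, 122 and 134 TPM in sham wounds and at 70.6, 60.0 and 97.4 TPM in CAP-treated wounds, a log2 difference of −0.84 (SE 0.18, limma p = 0.00248, exact permutation p = 0.1). Cfb was at 429, 299 and 416 TPM in sham wounds and 231, 175 and 182 TPM in CAP-treated wounds, which gave −0.95 (SE 0.18, limma p = 0.00111, exact permutation p = 0.1). For both, every CAP library was under every sham library. C3, the component on which the routes meet, was at 356, 397 and 380 TPM against 199, 262 and 312 TPM, and its difference of −0.58 (SE 0.17, limma p = 0.0114, exact permutation p = 0.1) came with a wider spread among the CAP libraries (SD 56.7 TPM) than among the sham libraries (SD 20.3 TPM). Cfd and Cfp, which act beside factor B as its activating protease and as a stabiliser of its enzyme, overlapped between the groups of day 3, with log2 differences of −0.16 (95% interval −0.95 to 0.62) for Cfd and 0.12 (95% interval −0.49 to 0.73) for Cfp.

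Mice carry a near copy of C4b, C4a, on the same strand and chromosome (chr17:34809092-34823464). Their longest annotated transcripts were 96.1% identical over 5367 aligned bases, with a run of 433 identical bases, and 48.3% of the 31-base stretches of C4b also occur in C4a. The 90 bases of exon 21 shown here, in capitals where the copies differ, hold 14 of the differing bases by which a read can be assigned.
C4a, chr17:34816086-34816175: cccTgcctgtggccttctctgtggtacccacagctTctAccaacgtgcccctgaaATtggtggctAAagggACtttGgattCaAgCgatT
C4b, chr17:34735430-34735519: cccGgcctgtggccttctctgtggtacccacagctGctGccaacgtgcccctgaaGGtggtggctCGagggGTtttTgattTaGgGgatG
C4a was listed at 5.57, 4.08 and 5.16 TPM in the sham group and 2.68, 3.25 and 2.46 TPM in the CAP group of day 3. How the authors' estimate split shared reads between the copies is not known, so the division between C4b and C4a is uncertain. Their sum differed by −0.84 between CAP and sham, as C4b alone did. Cfb shares 75.5% of its 31-base stretches with the overlapping same-strand gene Gm20547, which was listed at 0 in all 12 libraries.

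Serping1, which encodes the inhibitor of the C1 proteases, was also lower at day 3. Sham libraries of day 3 held 643, 542 and 588 TPM, and CAP-treated libraries 391, 385 and 431 TPM. The CAP libraries lay close together (SD 24.9 TPM) and all below the sham range, for a log2 difference of −0.55 (SE 0.11, limma p = 0.00142, adjusted p = 0.500, exact permutation p = 0.1).

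The receptors showed no such separation. C3ar1 was at 132, 98.5 and 137 TPM in sham wounds and 106, 113 and 203 TPM in CAP-treated wounds of day 3. C5ar1 was at 120, 60.5 and 91.5 TPM in sham wounds and 75.0, 107 and 157 TPM in CAP-treated wounds. The groups overlapped for both, and CAP-treated replicate 3 was the highest of all 12 libraries in both. The log2 difference was 0.15 for C3ar1 (95% interval −0.48 to 0.78) and 0.31 for C5ar1 (95% interval −0.47 to 1.09), with exact permutation p = 0.8 and 0.5, so neither a 2-fold rise of C5ar1 nor a modest decline is outside the interval.

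Cell markers moved at day 3 as well. In bulk tissue, fewer cells of a type and less RNA per cell cannot be told apart. Of 5 monocyte genes, 4 were lower in CAP-treated wounds at p under 0.05. The smallest p was that of Ccr2, the chemokine receptor of inflammatory monocytes, which fell by 1.33 on the log2 scale (SE 0.22, limma adjusted p = 0.500). Plac8 was next and fell by 1.13 (SE 0.20, limma adjusted p = 0.500). The largest difference was that of Ly6c2, at −2.48, and Cx3cr1 was at −1.17. The summed monocyte list was 356.9 to 385.8 TPM in sham and 165.2 to 214.0 TPM in CAP-treated libraries. Of 9 macrophage genes, 1 was lower at that level, Fcgr1 (log2 difference −0.39, SE 0.14), while Cd68 was at 810, 708 and 941 TPM in sham and 737, 972 and 1732 TPM in CAP-treated libraries. The macrophage sum ranged from 3869 to 5536 TPM in sham and from 4628 to 10060 TPM in CAP-treated libraries. Most of that sum was Lyz2 in all 12 libraries, at 2641 to 3954 TPM in sham and 3340 to 7576 TPM in CAP-treated libraries of day 3. Of 6 fibroblast genes, 3 were lower at p under 0.05 (Col1a1, Col1a2 and Lum), with sums of 14770 to 23020 TPM against 10380 to 15590 TPM, and the erythroid sum was higher (514.1 to 753.1 against 2356 to 2803 TPM). The part of these cell types in the complement differences was not tested. Hepatocyte genes were at or near 0 in both groups, with Ttr listed at 0 in all 12 libraries and Alb at no more than 0.393 TPM.

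**Figure D3:**
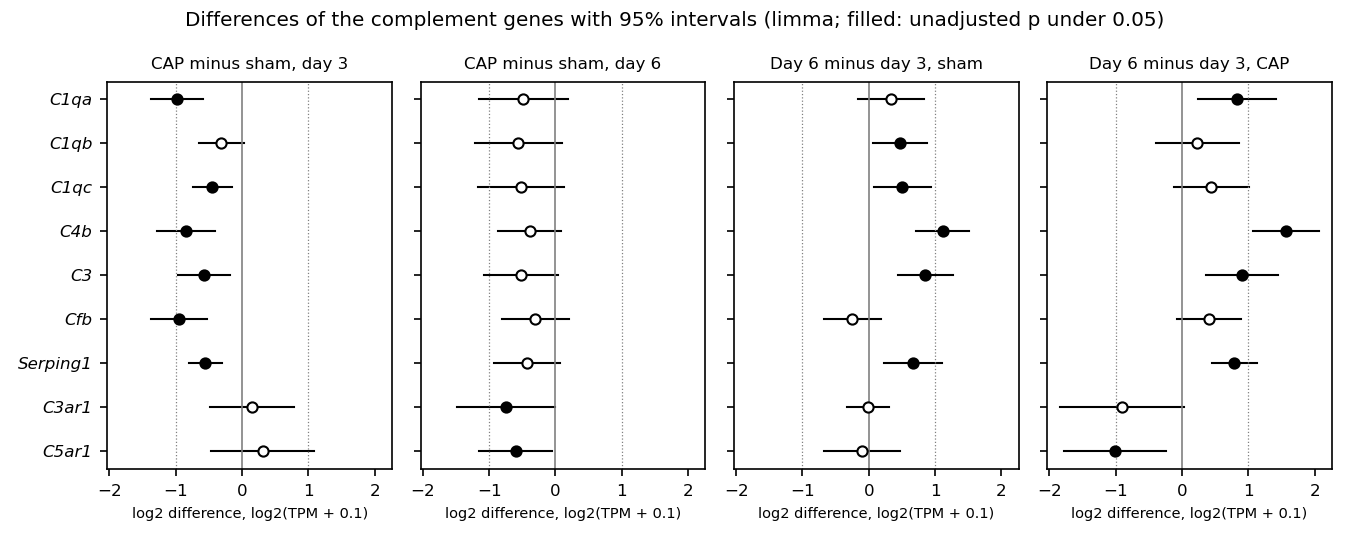
Log2 differences (x axis, log2(TPM + 0.1)) of the 9 genes (y axis) with 95% limma intervals in the 4 comparisons, filled where the unadjusted p is under 0.05, with dotted lines at 2-fold. At day 3 the C1q chains, C4b, C3, Cfb and Serping1 lie left of 0 and both receptors right of it, and at day 6 all 9 lie left of 0.

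The same comparison at day 6 asks whether the differences were still present later in healing. All 9 genes had a lower mean in CAP-treated wounds, with log2 differences from −0.30 (Cfb) to −0.74 (C3ar1), but in none of the 9 were the groups separate, whereas 18% of the 18323 genes tested were lower, and 8.01% higher, in every CAP library. None of the 9 passed the threshold, which 2.34% of genes passed downwards and 1.46% upwards. The 2 receptors had an unadjusted p under 0.05, against 12.5% of all genes lower and 6.67% higher at that level. With median-ratio scaling neither did, without a filter or with quantile normalization C3ar1 did not, and in the joint fit or with the replicate number as a block C5ar1 did not. The median difference was −0.51 for the 9 genes and −0.12 for all genes, and with median-ratio scaling, which removes most of that general shift (−0.02 for all genes), it was −0.40 for the 9. Without CAP-treated replicate 2, which stood apart in marker sums, the 9 differences ran from −0.14 (Cfb) to −0.43 (C3ar1), with a median of −0.29 and −0.24 for C1qa.

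At day 6 the receptors lay close together in the sham libraries and farther apart in the CAP-treated libraries. C3ar1 was at 113, 126 and 123 TPM in sham wounds and 65.8, 46.7 and 120 TPM in CAP-treated wounds, a log2 difference of −0.74 (SE 0.31, limma p = 0.0499, adjusted p = 0.260, exact permutation p = 0.2). C5ar1 was at 81.8, 94.3 and 69.8 TPM in sham wounds and 48.7, 41.4 and 76.3 TPM in CAP-treated wounds, a difference of −0.60 (SE 0.23, limma p = 0.0377, adjusted p = 0.242, exact permutation p = 0.2). For both genes CAP-treated replicate 3 lay inside the sham range. Without CAP-treated replicate 2, C3ar1 differed by −0.43 and C5ar1 by −0.41, both with a limma p above 0.05. Without CAP-treated replicate 3, C3ar1 passed the threshold (−1.11), and the limma adjusted p was 0.0307 for C3ar1 and 0.036 for C5ar1. Calls rose over all genes without that library, with 1483 in place of 697 past the threshold and 1430 in place of 0 at an adjusted p under 0.05.

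C1q was less uniform between libraries at day 6 than at day 3 in both groups. C1qa was at 1021, 619 and 1046 TPM in sham wounds and 753, 443 and 726 TPM in CAP-treated wounds, a difference of −0.48 (SE 0.28, limma p = 0.132, exact permutation p = 0.3). C1qb was at 1099, 853 and 1275 TPM against 740, 499 and 1015 TPM, and C1qc at 872, 614 and 974 TPM against 597, 397 and 756 TPM. Replicate 2 was the lowest library of its group in all 3 chains on both sides, and the groups overlapped through the sham library of that number.

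The other components showed the same layout. C4b was at 344, 221 and 320 TPM in sham and 255, 184 and 230 TPM in CAP-treated wounds, and C3 at 764, 512 and 813 TPM against 517, 366 and 569 TPM. Serping1 was at 1184, 720 and 963 TPM against 774, 584 and 736 TPM, and Cfb at 377, 262 and 323 TPM against 334, 205 and 249 TPM. Replicate 2 was again the lowest of each group, and adjusted limma p values ran from 0.280 for C3 (log2 difference −0.52) to 0.444 for Cfb (−0.30). The number of the 9 genes with p under 0.05 went from 2 to 0 without CAP-treated replicate 2 or without sham replicate 1, to 1 without CAP-treated replicate 1 or sham replicate 3, and to 5 without CAP-treated replicate 3 or sham replicate 2. Over all genes, 3517 had p under 0.05 in either direction with every library kept. In the same order of leaving out, that number was 2294 and 1925, then 2389 and 2122, and then 5262 and 2718.

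Marker sums differed between the groups at day 6 as well. Keratinocyte genes summed to 25990 to 29600 TPM in sham and 45690 to 96980 TPM in CAP-treated libraries. Of these genes, Krt1 (log2 difference 1.86), Krt10 (1.62), Lor (1.44) and Krt5 (0.61) were higher in every CAP library. Krt14 (0.38) and Dsg3 (−0.24) overlapped between the groups. Neutrophil genes, from cells known to carry C5ar1, summed to 1769 to 3319 TPM in sham and 280.8 to 2675 TPM in CAP-treated libraries. Most of that sum was S100a8 and S100a9 in each of these libraries, while Ly6g was at no more than 0.664 TPM. The macrophage sum was 6939 to 10100 TPM against 4162 to 9236 TPM, with 3 of 9 genes lower at p under 0.05 (Fcgr1, Mrc1 and Ms4a7), and the monocyte sum 222.6 to 257.5 TPM against 110.3 to 191.2 TPM, apart as at day 3. The endothelial sum was 198.0 to 261.5 TPM in sham and 61.51 to 166.9 TPM in CAP-treated libraries. Their part in the lower complement values was not tested.

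Between day 3 and day 6 of sham healing, 5 of the 9 genes, all components or the inhibitor, were higher at day 6 at an unadjusted p under 0.05 (8.05% of all genes, and 7.91% lower). C4b rose in every library, from 122 to 147 TPM at day 3 to 221 to 344 TPM at day 6, a log2 difference of 1.11 (SE 0.17, limma p = 0.000307, adjusted p = 0.0286, exact permutation p = 0.1). It was the only one of the 9 past the threshold, which 2.13% of 18368 genes passed upwards and 1.61% downwards, and the only one with an adjusted p under 0.05, reached upwards by 1.14% of genes. That adjusted p rose to 0.107 in the joint fit of 12 libraries, where no gene was under 0.05, to 0.0782 without a filter, and to between 0.0671 and 0.112 without replicate 1 or 3 of day 6 or replicate 2 or 3 of day 3. Without sham replicate 1 of day 6 its difference was 0.99, short of 2-fold, and without sham replicate 2 of day 6 C3 passed as well. Of the 5 genes, 4 (C4b, C3, C1qb and Serping1) were higher in every day 6 library, which 10.8% of genes were. The median difference was 0.48 for the 9 genes and 0.00 for all genes.

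C3 was higher by 0.86 (SE 0.18, limma adjusted p = 0.0592) and Serping1 by 0.67 (SE 0.18, limma adjusted p = 0.131) in sham wounds of day 6. C1qc and C1qb followed with 0.51 and 0.48 (SE 0.18 and 0.17), and C1qa with 0.34 (SE 0.21), which missed an unadjusted p of 0.05. Those 3 chain estimates depend on sham replicate 2 of day 6, the low library: without it C1qa differed by 0.58. Cfb was not higher (log2 difference −0.25, 95% interval −0.68 to 0.18), nor were C3ar1 (−0.01, 95% interval −0.33 to 0.30) and C5ar1 (−0.10, 95% interval −0.67 to 0.47). The count of 5 fell to 3 without sham replicate 1 or replicate 3 of day 6, and without sham replicate 2 of day 3. Over all genes, the number with p under 0.05 in either direction fell there from 2930 to 2547, 2206 and 2306. Macrophage genes summed to 3869 to 5536 TPM at day 3 and 6939 to 10100 TPM at day 6 and monocyte genes to 356.9 to 385.8 and 222.6 to 257.5 TPM. Lyz2 alone made up most of the macrophage sum, at 2641 to 3954 TPM and then 5356 to 8049 TPM. Among the other macrophage genes, Mertk (0.67) and Ms4a7 (0.60) were higher in every day 6 library and Fcgr1 (−0.43) lower. The rest overlapped, Cd68 (0.16), Adgre1 (0.28) and Csf1r (0.28) among them. Other markers moved further, with the endothelial sum going from 74.97 to 105.8 TPM up to 198.0 to 261.5 TPM (Pecam1 by 1.41, SE 0.18, limma adjusted p = 0.0173) and the erythroid sum from 514.1 to 753.1 TPM up to 2113 to 5622 TPM (Hba-a1 by 2.39, SE 0.34, limma adjusted p = 0.0233). The part of these cell types was not tested.

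In CAP-treated wounds the course from day 3 to day 6 had 2 genes past the threshold, in opposite directions. C4b rose by 1.57 on the log2 scale (SE 0.21, limma p = 0.000163, adjusted p = 0.165, exact permutation p = 0.1), from 60.0 to 97.4 TPM to 184 to 255 TPM. C5ar1 fell by 1.01 (SE 0.32, limma p = 0.0177, adjusted p = 0.352, exact permutation p = 0.2), from 75.0 to 157 TPM to 41.4 to 76.3 TPM, with 1 overlapping library on each side. Of the 18202 genes tested, 1.27% passed upwards and 1.52% downwards. The C5ar1 call ended just short of 2-fold with a pseudocount of 1 TPM, median-ratio scaling (−0.96) or quantile normalization (−0.95). It also ended without CAP-treated replicate 1 (−0.94) or 2 (−0.82) of day 6 or replicate 3 of day 3 (−0.74). Without replicate 2 of day 6, C1qa (1.08) and C3 (1.10) passed instead, without replicate 3 of day 3 C3 did (1.06), and without replicate 3 of day 6 C3ar1 did (−1.28).

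Of the 9 genes, 4 were higher in every CAP library of day 6 than in any of day 3 (C4b, C3, C1qa and Serping1), against 8.05% of all genes, and the same 4 had p under 0.05 (5.66% of all genes). C3 was higher by 0.91 (SE 0.23), C1qa by 0.83 (SE 0.25) and Serping1 by 0.79 (SE 0.14), each with exact permutation p = 0.1. C1qa differed most among the C1q chains, as it had between CAP and sham at day 3, and the comparisons share those 3 CAP libraries. C1qb differed by 0.23 (95% interval −0.39 to 0.85) and C1qc by 0.44 (95% interval −0.13 to 1.01). The difference of C3ar1 was −0.91 (SE 0.39, limma adjusted p = 0.438), C5ar1 was the 1 gene lower at p under 0.05 (5.91% of all genes), and Cfb differed by 0.40 (SE 0.20). Without CAP-treated replicate 2 of day 6 the number of the 9 genes higher at p under 0.05 was 7, while 1615 of all genes in place of 2107 had such a p in either direction. Median differences were 0.44 for the 9 genes and −0.05 for all genes.

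Cell markers moved between the days of CAP treatment too. From day 3 to day 6 the fibroblast sum went from 10380 to 15590 TPM up to 15740 to 21520 TPM, the keratinocyte sum from 24490 to 45530 TPM up to 45690 to 96980 TPM, and the T and NK cell sum from 12.10 to 13.51 TPM up to 22.20 to 32.03 TPM, without overlap. The macrophage sum was 4628 to 10060 TPM and then 4162 to 9236 TPM, with Fcgr1 at −1.03 (SE 0.34, limma adjusted p = 0.356), and the neutrophil sum 1889 to 4876 TPM and then 280.8 to 2675 TPM, with Retnlg at −2.24 (SE 0.56, limma adjusted p = 0.295). The other macrophage genes all overlapped and went both ways. Cd68 (−0.83), Mertk (−0.49), Adgre1 (−0.36) and Lyz2 (−0.16) were lower, and Cd163 (0.98), Ms4a7 (0.30), Csf1r (0.28) and Mrc1 (0.01) higher. Most of the neutrophil sum was S100a8 and S100a9. The part of these cell types in the complement differences was not tested.

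Whether CAP acted differently at day 6 than at day 3 was tested as an interaction over all 12 libraries. None of the 9 genes had an unadjusted p under 0.05, a level that 5.88% of 20267 genes reached downwards and 5.43% upwards, so differences between the days are not established by these data. Cfb came closest, with 0.65 (95% interval 0.00 to 1.30, limma adjusted p = 0.440), where its CAP difference was −0.95 at day 3 and −0.30 at day 6. The receptors followed with interactions of −0.91 for C5ar1 (95% interval −1.89 to 0.07) and −0.89 for C3ar1 (95% interval −1.89 to 0.11), the opposite sign. C3 and Serping1 had interactions near 0 (0.05 and 0.12), with intervals from −0.63 to 0.74 and from −0.42 to 0.66. Without CAP-treated replicate 2 of day 6, C1qa and Cfb passed p under 0.05, and without CAP-treated replicate 3 of day 6, C3ar1 and C5ar1 did. Without CAP-treated replicate 1 of day 3, Cfb and C5ar1 passed, and 1 gene passed without sham replicate 1 (C5ar1), sham replicate 2 (Cfb) or CAP-treated replicate 3 (C4b) of day 3 or sham replicate 1 of day 6 (Cfb). Over all genes, 2292 reached that level with every library kept. That number was 1470 without CAP-treated replicate 2 of day 6 and 4062 without replicate 3 of that group. With the other libraries named here left out, it was between 1408 and 2812.

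The wider cascade was read from a list of 46 further complement genes, of which 35 reached a mean of 0.3 TPM in some group. The lectin pathway starters Mbl1, Mbl2, Fcnb and Colec10 with the protease Masp2, the terminal components C8a, C8b and C9, and C4bp, Cpn2 and Cr2 stayed under that level in all 4 groups. C5 itself, listed as Hc, was at no more than 0.705 TPM in any library, although its receptor C5ar1 was well expressed.

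At day 3, 32 of the list were tested, and 8 were lower in CAP-treated wounds and 1 higher (Cd93) at p under 0.05, where 5.14% and 1.46% of all genes were (median log2 difference −0.135). The lower ones included the classical proteases C1ra (−0.45, SE 0.13), C1rb (−0.46, SE 0.10) and C1s1 (−0.37, SE 0.13), and C2 (−0.53, SE 0.11), which are named here because they act between C1q and C3. Sequence shared between C1ra and C1rb, or between C1s1 and C1s2, was not examined, so their values may not be independent. The C4a difference was −0.80 (SE 0.19, limma adjusted p = 0.522). Only Vsig4, a macrophage receptor for C3 fragments, passed the threshold and fell by 1.38 (SE 0.38, limma adjusted p = 0.568), at 1.42, 1.35 and 2.03 TPM in sham and 0.591, 0.310 and 0.847 TPM in CAP-treated wounds. At day 6, 33 were tested with 7 lower and 1 higher at p under 0.05, where 12.5% and 6.67% of all genes were (median −0.37, and −0.12 for all genes). Cfp, among the 7, was lower in every CAP library (−0.78, exact permutation p = 0.1), as 18% of all genes were. Cfd overlapped between the groups, with a difference of 0.62. Itgam, the alpha chain of complement receptor 3, fell by 1.04 (SE 0.42, limma adjusted p = 0.250), with 161, 186 and 138 TPM in sham and 75.7, 41.8 and 151 TPM in CAP-treated wounds. Without CAP-treated replicate 2 its difference was −0.58, and the call was also lost on leaving out CAP-treated replicate 1 or any 1 sham replicate, without a filter, with either other scaling and with the replicate number as a block. C5ar2, a second C5a receptor, also passed the threshold, but it was listed at 0 in CAP-treated replicates 1 and 2 and at 5.24 TPM in replicate 3, against 4.31 to 5.37 TPM in sham wounds, so no fold is given.

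Over time more of the wider list was higher than lower at day 6. In sham wounds 14 of 33 were higher and 2 lower at day 6 at p under 0.05, where 8.05% and 7.91% of all genes were (median 0.28, and 0.00 for all genes). Those past the threshold upwards were Masp1, a lectin pathway protease (1.28, SE 0.18, limma adjusted p = 0.0224), Cfi (2.41, SE 0.44, limma adjusted p = 0.0432), Fcna and C1s2, and Cpn1 fell. In CAP-treated wounds 8 of 32 were higher and 3 lower, where 5.66% and 5.91% of all genes were (median 0.21, and −0.05 for all genes). Past the threshold were C1s2 (1.86, SE 0.26), C4a (1.25, SE 0.19), Fcna (1.88, SE 0.28) and Vsig4 (1.92, SE 0.41) upwards, and Itgam (−1.64, SE 0.48), Cpn1 and C5ar2 downwards.

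**Figure D4:**
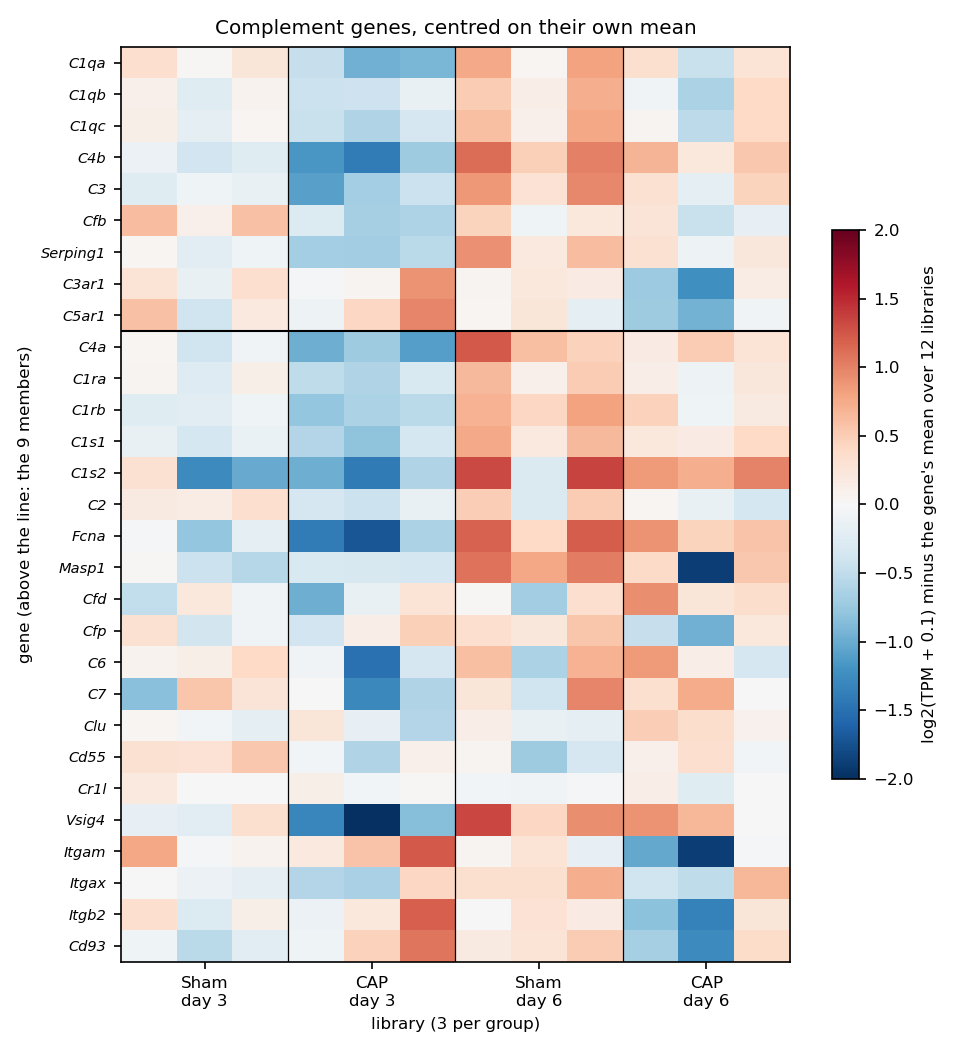
Log2(TPM + 0.1) of complement genes minus each gene's mean over 12 libraries (colour, blue below and red above 0), with genes in rows, the 9 described genes above the line, and libraries in columns by group. The CAP columns of day 3 are blue for the C1q chains, C4b, C3 and Serping1 as for the classical proteases C1ra, C1rb and C1s1, whereas C3ar1, C5ar1 and Itgam are reddest in replicate 3 of that group. For C4b, C3, C1rb and C1s1 the sham columns of day 3 are blue as well, though mostly paler.

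To place the 9 genes among the other 15356 genes with at least 1 TPM in each group, the genes of nearest profile were found by the root mean square difference of centred log2 values over the 12 libraries, as a description. Serping1 was nearest to C1rb (0.143), C1s1 (0.144) and C1ra (0.149), the proteases of the complex it inhibits, and C3 to C1rb (0.160), Serping1 (0.192) and Kit (0.198). The mean C1q profile was nearest to Igfbp4 (0.159), Vash1 (0.166) and C1ra (0.168), where the C1q profile itself had an SD of 0.440. C4b was nearest to the ficolin gene Fcna (0.197), and then to C3 (0.309) and Trf (0.320). Cfb stood apart from the other components, with H2-Ab1, an MHC class II gene, nearest (0.139), then Cbfa2t3 (0.141) and Fgd2 (0.145). C3ar1 was nearest to Gm14548 (0.102), Plcb2 (0.105) and Aldh3b1 (0.107), and C5ar1 to Card19 (0.164), AI467606 (0.178) and Plcb2 (0.184), so Plcb2 was among the 3 nearest genes of both receptors. All these points share the same 12 libraries, and nearness of profile says nothing of shared control.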

How the data were processed

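RNA of mouse wounds was sequenced by the authors with paired-end reads after library preparation with the SureSelect XT HS2 mRNA kit. Per the labels, bcl2fastq and Trimmomatic 0.36 were used with the mm10 genome, and the study's methods name StringTie; no source used here names the aligner. The authors deposited 12 tables of TPM, 1 per library, for 55487 genes, in which 0.0001 stands in place of 0 and which hold 0 further columns of values. Each table sums to between 1000003.08 and 1000003.23 TPM. TPM carries no depth, so counting error cannot be given and precision rests on 3 libraries a group.

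The values, as log2(TPM + 0.1), were fitted with limma 3.58.1 in R 4.3.3 (empirical Bayes with trend) in the 6 libraries compared, keeping genes whose mean reached 0.3 TPM in each of the groups, or over 12 libraries and genes at that mean in 1 group or more for the difference between the days. Benjamini-Hochberg adjustment covered every gene tested. The threshold was that of the study, an unadjusted p under 0.05 and at least 2-fold. Exact permutation tests were 2-sided. All p values are 2-sided. Treatment and day comparisons share libraries, so they are not independent of one another. The fit was tested on simulated data with known changes. The study's methods name DESeq or DESeq2 for its comparison, which needs counts, and those were not used here.

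The 9 genes and the other gene lists were chosen with earlier results of these data known. By rule, all 9 genes are named, C4a, the genes of the wider list past the threshold (at most the 6 of smallest p a comparison) or below 0.3 TPM in all groups, the 3 genes nearest in profile, and the macrophage and monocyte genes of smallest p. The genes C1ra, C1rb, C1s1, C2, Hc and C5ar2, Cfd and Cfp, the further marker genes, and the ratios between members were chosen after values were seen, as were the names Cd93, Cd55, C1qbp and Calr from the pathway list. One gene was left out of the pathway list and is not reported here, and list genes that are not named enter the counts only. Positions in the tables equal those of GENCODE M21 on GRCm38 for the 9 genes. Transcripts of C4a and C4b were aligned with Biopython 1.88, and tables were handled with Python 3.11.15, numpy 2.4.6, pandas 2.3.3 and matplotlib 3.10.9. Alternatives were a pseudocount of 1 TPM, no filter, median-ratio scaling, quantile normalization, a joint fit of 12 libraries, the replicate number as a block, the sum of C4b and C4a, and leaving out each library in turn.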

Additional observations from a re-analysis of the deposited data

Results flagged for a closer look

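A total of 7 genes of the wider complement list had a CAP effect at day 6 that differed from that at day 3 at an unadjusted p under 0.05 in the limma interaction over 12 libraries, and the adjusted p was between 0.428 and 0.440 for all of them. Cd55, a cell-surface inhibitor of the C3-cleaving enzymes, differed by 1.01, with a log2 difference between CAP and sham of −0.56 at day 3 and 0.46 at day 6. Cd93 differed by −1.61, from 0.76 at day 3 to −0.85 at day 6. C1qbp differed by −0.38 and Calr by −0.45. Itgam differed by −1.43 and Cfi by −1.91, with Cfi at 0.176 to 2.98 TPM over the libraries. C5ar2 differed by −3.70, a value that rests on CAP-treated replicates 1 and 2 of day 6, where it was listed at 0. Of the 35 genes of the list tested, 6 differed downwards and 1 upwards, against 5.88% and 5.43% of all genes.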

How the results depend on the processing

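Of the 9 complement genes, the number past the threshold stayed at 0 for CAP against sham at either day, and at 1 in sham wounds between the days, under a pseudocount of 1 TPM, no filter on low values, median-ratio scaling, quantile normalization, a joint fit and a replicate block. In CAP-treated wounds between the days it went from 2 to 1 with the pseudocount of 1 TPM, median-ratio scaling or quantile normalization, since C5ar1 then was just short of 2-fold. The number with a CAP effect that differed between the days went from 0 to 1 (Cfb) with median-ratio scaling or quantile normalization. Leaving out 1 library gave 0 to 2 genes past the threshold for CAP against sham at day 3, 0 to 1 at day 6, 0 to 2 in sham wounds between the days, 1 to 3 in CAP-treated wounds between the days, and 0 to 2 for the difference of the effects. The libraries that changed the last count were replicates 1 and 2 of the sham group and replicates 1 and 3 of the CAP group at day 3, and sham replicate 1 and CAP replicates 2 and 3 at day 6. Direction changed where differences were small. With quantile normalization C3ar1 in sham wounds between the days was 0.0014 and the C1qc difference of effects 0.013. Leaving out 1 library moved C3ar1 between −0.15 and 0.32 (CAP against sham, day 3), C3ar1 between −0.165 and 0.0728 and C5ar1 between −0.36 and 0.13 (sham, between the days), C1qb between −0.0154 and 0.50 (CAP, between the days), and the differences of effects of C1qb between −0.49 and 0.0206, of C1qc between −0.28 and 0.19, of C3 between −0.15 and 0.24 and of Serping1 between −0.0705 and 0.29. At day 3, the 6 genes of the 9 lower at p under 0.05 became 7 with quantile normalization and 5 in the joint fit, which lost C1qc. At day 6, the 2 became 0 with median-ratio scaling, 1 without a filter or with quantile normalization, and 5 in the joint fit. Over all genes, the number with p under 0.05 in either direction at day 3 was 1210, and 1130 with quantile normalization and 1134 in the joint fit. At day 6 it was 3517, and 3171 with median-ratio scaling, 3905 of 29582 without a filter, 3268 with quantile normalization and 4345 in the joint fit. The cause of these changes was not tested. Replicate numbers are shared between groups. Between treatments, libraries of 1 number did not deviate together at day 3 (correlations of −0.139, 0.023 and 0.008). At day 6 these correlations were small but all positive (0.030, 0.102 and 0.081), and every library correlated best with its own number in the other treatment. Between the days they were 0.007, 0.001 and 0.048 in sham and 0.017, −0.007 and 0.256 in CAP-treated wounds. Pairs of unlike number in CAP-treated wounds ranged from −0.232 to 0.214. With the replicate number as a block, 8 of the 9 genes, C5ar1 not among them, had p under 0.05 at day 6 in place of 2 (4146 of all 18323 genes in place of 3517). For the difference of the effects it was 4 in place of 0 (C3ar1, C1qa, C4b and Cfb), and 2454 of all genes in place of 2292. Depth is unknown in TPM, which limits low genes such as C4a, Cfi, Vsig4 and Hc most.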
